A study of Arabidopsis thaliana with 6 samples.

Results

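A set of 137 genes rose by the first day of vascular induction in Arabidopsis cotyledons and was still high on the second day, in sucrose and in glucose. The members were selected on the arrays described here: the level of a probe set had to be at least 2.5 higher on the log2 scale at 24 h and at 48 h than at 0 h, in both sugars. A level is the deposited log2 signal minus the array's median over probe sets with 1 gene. The rule found 137 of 16722 such probe sets, or 0.819%, at 137 different loci. Because these 4 differences chose the members, they are given as a description with no test, and "rose" means past the stated fold. Of the 137 members, 28 carry a gene symbol and 109 are known here by locus tag alone.

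The study cultured cotyledons in VISUAL, a system in which leaf cells are turned into vascular cells, with either 5% sucrose or 5% glucose in the medium. Cotyledons of 6-day-old wild-type seedlings, kept in continuous light at 22 °C in liquid MS medium, were placed with the auxin 2,4-D at 1.25 mg/L, the cytokinin kinetin at 0.25 mg/L and bikinin at 10 µM. There were 6 groups of 1 array each: sucrose at 0, 24 and 48 h and glucose at 0, 24 and 48 h. No group has a replicate, so values carry no SD and precision is limited by having 6 arrays. All cultured groups share the hormones and bikinin, so the effect of the medium and that of time in culture cannot be told apart. Times are those of the titles. Another label of the samples disagrees with them on 5 of the 6 arrays, reading 72 h on all 3 sucrose arrays, 34 h on the array titled glucose 24 h and 72 h on that titled glucose 48 h.

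Auxin acts by removing Aux/IAA repressors from the promoters of its early genes, among them the GH3 enzymes, which join auxin to amino acids and so lower its active level, and the Aux/IAA genes themselves. Cytokinin drives cell division together with auxin. Bikinin inhibits GSK3-like kinases and so switches on brassinosteroid signalling, the hormone pathway that favours cell expansion and xylem formation. In VISUAL, mesophyll cells of the leaf lose their identity, pass through a procambium-like state and become xylem or phloem.

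The median member stood at -0.55, 3.09 and 4.01 in sucrose at 0, 24 and 48 h, and at -0.55, 3.35 and 3.34 in glucose at the same times. In sucrose the median was thus still higher on the second day, while in glucose it was level. Counted from 0 h, the median differences of the members were 3.38 at 24 h and 4.42 at 48 h in sucrose, and 3.81 and 3.76 in glucose. The same medians over all probe sets with 1 gene were -0.24 and -0.32 in sucrose and -0.25 and -0.19 in glucose. The difference that came closest to the threshold was sucrose at 24 h in 66 members, glucose at 48 h in 43, glucose at 24 h in 21 and sucrose at 48 h in 7. The largest difference was sucrose at 48 h in 68 members. Of the 223 genes that met the rule in sucrose alone, 61.4% were members, and of the 249 that met it in glucose alone, 55.0% were.

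**Figure D1:**
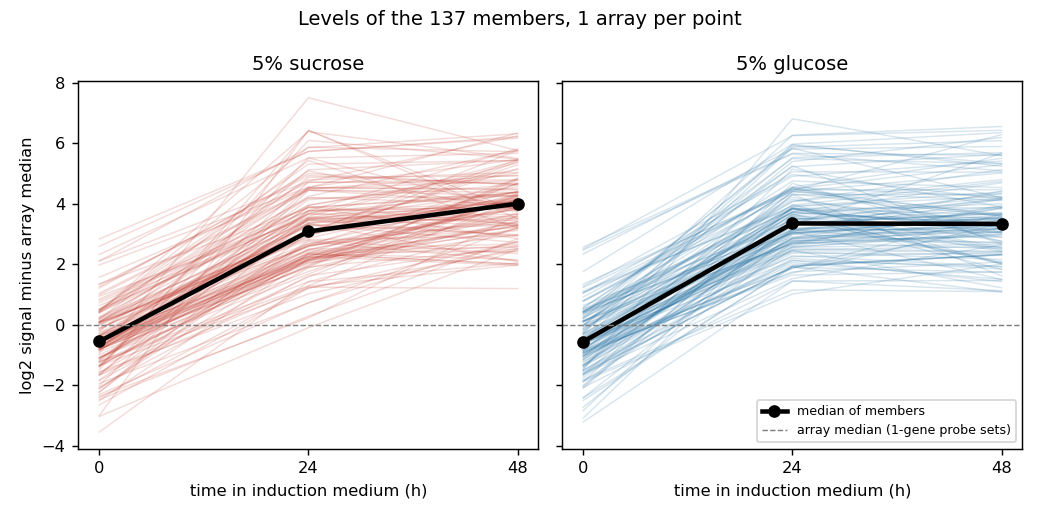
Level of every member (log2 signal minus array median) against time in the medium (h), with sucrose on the left and glucose on the right. Each thin line is 1 gene on 3 arrays, the black line is the median of the 137 members, and the dashed line is the array median. The median line climbs from 24 to 48 h in sucrose (3.09 and 4.01) and is flat in glucose (3.35 and 3.34).

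The spread of the measurement can be read only from the pair of 0 h arrays, taken at the start of culture if the titles hold. Of the 137 members, 128 lay within 2-fold of each other on the 0 h sucrose and 0 h glucose arrays. So did 15910 of the 16722 probe sets with 1 gene. The members' differences ran from -1.45 to 1.35 with a median of -0.02. Many members were dim before induction. The pooled 40th percentile of the arrays lies at a level of -0.54 and is called the floor here, and 60 members were below it on both 0 h arrays and 20 on one of them. All 137 were above it on the 4 cultured arrays. A member below the floor at 0 h has only a bound on its fold, which is counted here from the floor. Counted in this way, 103 of the 137 members still reached 2.5 in all 4 differences. The floor is not a measured detection limit. At 0 h the 23 background control probe sets had median levels of 0.53 in glucose and 0.03 in sucrose, above the median member. Among them, the 8 with a GC count of 18 or more had medians of 4.05 and 3.38. Members above the floor may thus also have been at background at 0 h, and their folds may be bounds too.

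First by the smallest of its 4 differences was AT4G12490, with levels of -0.94, 7.50 and 5.76 in sucrose at 0, 24 and 48 h, against -1.48, 6.81 and 5.59 in glucose. It was high on all 4 cultured arrays, at least 70.1-fold above the floor in the smallest of them, and lower at 48 h than at 24 h in both sugars. AT4G12500, which lies 2 genes away on chromosome 4, stood at -2.998, 6.44 and 3.51 in sucrose and at -2.83, 3.60 and 2.08 in glucose. It too peaked at 24 h, and it was far higher in sucrose. AT5G24200 had the same course, with -1.49, 6.42 and 3.76 in sucrose and -1.89, 4.68 and 2.76 in glucose. The probe tables give no function for these 3 loci.

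Other members known by locus tag took varied courses after 24 h. AT5G22930 stood at -1.67, 4.53 and 4.46 in sucrose and at -1.43, 5.15 and 3.90 in glucose. AT1G70470 held -0.77, 4.13 and 4.63 in sucrose and -0.83, 4.29 and 4.32 in glucose, so its 4 cultured arrays lay within 2-fold of each other. AT1G10750 had -2.23, 3.05 and 4.20 in sucrose and -2.09, 3.91 and 4.24 in glucose. The last of these reached the same level in both sugars by 48 h, having been lower in sucrose at 24 h. AT4G23680 stood at 0.52, 5.31 and 5.44 in sucrose and at -0.51, 5.87 and 6.09 in glucose, lower in sucrose at both culture times although it began higher. AT1G14630, with -1.21, 3.34 and 4.08 in sucrose and -2.03, 3.31 and 3.86 in glucose, was alike in both sugars. AT3G28420 had -2.22, 3.52 and 3.57 in sucrose and -2.00, 3.85 and 2.47 in glucose, where it was lower on the second day. With GH3.3, HAT2, GSTU25, IAA30, NDB4 and NAI2, described below by role, these are the 15 members with the largest smallest difference. The order is not one of measured folds, since 11 of the 15 were below the floor on both 0 h arrays. Counted from the floor, the smallest difference of AT4G12500 is 2.62, that of AT3G28420 is 3.02 and that of IAA30 is 1.97.

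Auxin response genes led the members that carry a symbol. GH3.3 (AT2G23170), an enzyme that conjugates auxin to amino acids, stood at -1.38, 6.09 and 5.48 in sucrose at 0, 24 and 48 h and at -0.27, 5.96 and 5.24 in glucose. Its 24 h arrays differed by 0.14 between the sugars, less than the 0 h pair did (-1.11). GH3.1 (AT2G14960), of the same enzyme family, had 0.45, 6.38 and 5.50 in sucrose and 0.33, 5.84 and 4.20 in glucose, with a peak at 24 h in both. HAT2 (AT5G47370), an auxin-inducible HD-ZIP II transcription factor, stood at 0.44, 5.87 and 5.72 in sucrose and at 0.21, 5.92 and 5.34 in glucose. HAT2 was above the floor at 0 h, and its smallest difference is 34.9-fold. Its level of 0.21 in glucose at 0 h was below the median of the background controls on that array (0.53), so this fold may also be only a bound. IAA30 (AT3G62100), a member of the Aux/IAA repressor family, had -3.54, 1.43 and 2.05 in sucrose and -3.21, 1.45 and 1.47 in glucose. It was far below the floor at 0 h on both arrays, and its smallest difference counted from the floor is 3.92-fold. That is no firm bound, since the floor is not a detection limit. Its cultured levels were above the medians of all 23 background controls (-0.81 and -0.96 in sucrose, -0.70 and -0.34 in glucose). They were below those of the 8 with a high GC count (2.41 and 2.19 in sucrose, 2.56 and 3.06 in glucose). PID2 (AT2G26700), a kinase related to the auxin transport regulator PINOID, had -1.33, 2.14 and 3.58 in sucrose and -1.33, 2.85 and 3.32 in glucose.

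Most measured relatives in the GH3 and Aux/IAA families did not rise by 2-fold in all 4 differences. Of 5 GH3 probe sets measured, the 2 members rose and none of the other 3 rose by 2-fold in all 4 differences: GH3.17 had 0.48 and 0.80 in sucrose and 1.03 and 0.90 in glucose. Across all probe sets with 1 gene, 6.88% rose by 2-fold or more in all 4 differences and 8.23% fell by as much. Of 8 Aux/IAA probe sets, IAA30 was a member and IAA20 rose by at least 2-fold throughout, with differences of 1.52 and 2.45 in sucrose and 1.95 and 2.33 in glucose. The other 6 did neither. The 2 LBD probe sets, also listed under auxin response, did neither. Their median differences were -0.35 and -0.48 in sucrose and -0.44 and -0.29 in glucose. In all, 3 of the 15 probe sets on the auxin response lists were members, 1 other rose by 2-fold throughout and 11 did neither. HAT2, listed apart, was the only HD-ZIP II gene measured by name. Among 8 cytokinin response regulators and oxidases, none was a member and none passed 2-fold in all 4 differences. The lists of families were written with earlier results of these data known, and they hold only genes that the probe table names by symbol.

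**Figure D2:**
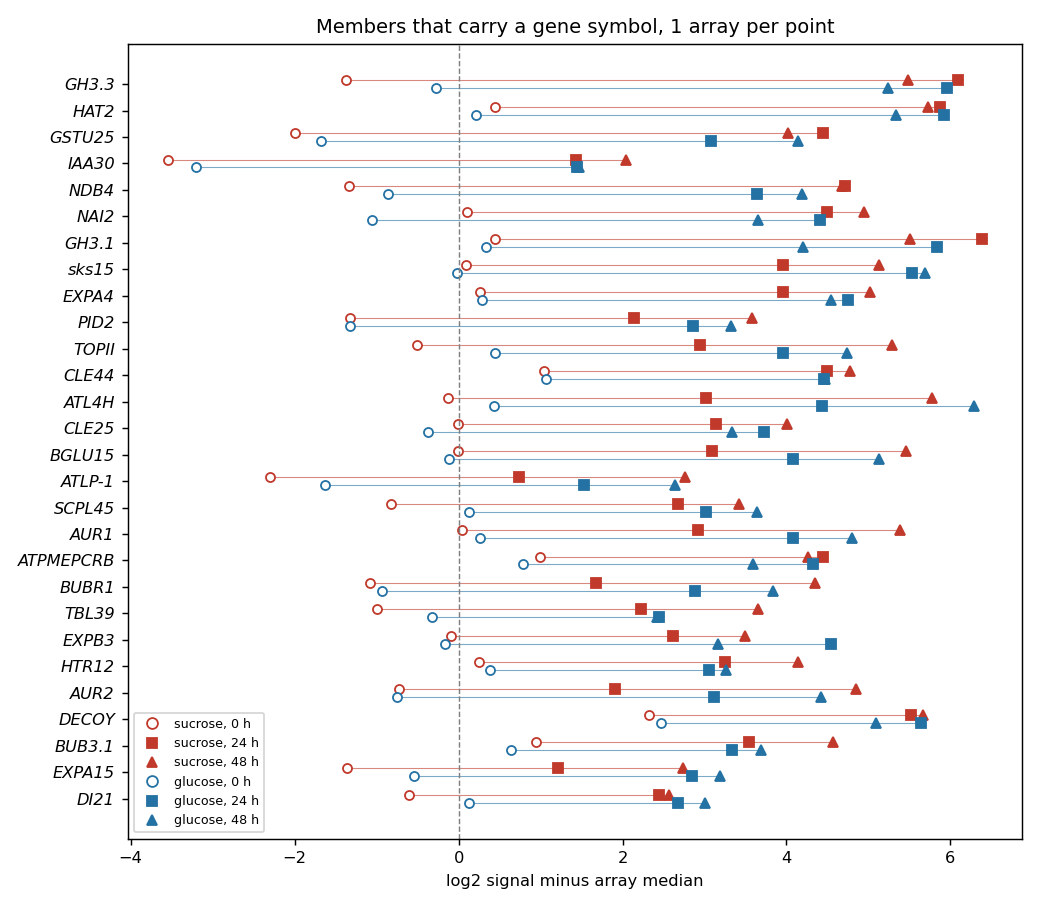
Levels of the 28 members with a symbol on the 6 arrays (log2 signal minus array median), ordered from top to bottom by the smallest of the 4 differences. Red marks sucrose and blue glucose, with open circles at 0 h, squares at 24 h and triangles at 48 h, and each point is 1 array. GH3.3 and HAT2 have the 24 h squares of both sugars close together, while AUR1, AUR2, BUBR1, EXPB3 and EXPA15 have the sucrose square to the left of the glucose square.

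Genes of cell division formed the second group. AUR1 (AT4G32830), an Aurora kinase that acts on mitotic chromosomes and spindles, stood at 0.04, 2.92 and 5.39 in sucrose and at 0.26, 4.08 and 4.80 in glucose. AUR2 (AT2G25880), its close relative, had -0.72, 1.91 and 4.84 in sucrose and -0.75, 3.11 and 4.42 in glucose. TOPII (AT3G23890), the topoisomerase that untangles replicated DNA, had -0.50, 2.94 and 5.29 in sucrose and 0.44, 3.95 and 4.74 in glucose. BUBR1 (AT2G33560), a spindle checkpoint protein, had -1.08, 1.68 and 4.34 in sucrose and -0.94, 2.88 and 3.84 in glucose. These 4 genes had the same order of arrays: lower in sucrose at 24 h by 1.01 to 1.21 on the log2 scale, then higher in sucrose at 48 h by 0.42 to 0.59. TOPII was already 0.95 lower in sucrose at 0 h, and its 24 h difference from 0 h was alike in both sugars (3.45 in sucrose and 3.51 in glucose). BUB3.1 and HTR12 were not lower in sucrose at 24 h. BUB3.1 (AT3G19590), also of the spindle checkpoint, had 0.95, 3.54 and 4.56 in sucrose and 0.64, 3.33 and 3.69 in glucose. HTR12 (AT1G01370), the centromeric histone H3 variant, had 0.24, 3.24 and 4.14 in sucrose and 0.39, 3.05 and 3.26 in glucose.

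Few division genes carry a symbol on this platform, and most of those measured rose. AUR3, the remaining Aurora kinase, had differences of 3.67 and 3.92 in sucrose and 1.41 and 2.19 in glucose, short of the rule in glucose. BUB3.2 had 3.96 and 4.06 in sucrose and 2.24 and 2.45 in glucose. PRL, an MCM subunit of the complex that licenses DNA replication, had 1.67 and 3.13 in sucrose and 2.84 and 2.06 in glucose. The histone H2B gene HTB2, with 1.70 and 3.32 in sucrose and 3.34 and 3.03 in glucose, missed the rule only at 24 h in sucrose. Of the 2 kinesins, KINESIN-12B, a motor of the cell plate, rose by 2-fold in every difference, with 1.02 and 3.35 in sucrose and 2.63 and 3.32 in glucose, while KINESIN-13A stayed between -0.15 and 0.36. In all, 5 of the 15 probe sets in the division lists were members, TOPII being on none of the lists, and 6 others rose by 2-fold or more in all 4 differences. The remaining 4 were KINESIN-13A and 3 histone probe sets, which neither rose nor fell by as much in all 4 differences. Over all probe sets with 1 gene, 0.819% were members and 6.88%, members included, rose by 2-fold or more in all 4 differences. The division lists, too, were written with earlier results of these data known, so these counts are a description.

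Among cell wall genes, single members of large families rose. EXPA4 (AT2G39700), an expansin, a protein that loosens walls so that cells can enlarge, stood at 0.26, 3.96 and 5.02 in sucrose and at 0.29, 4.75 and 4.54 in glucose. EXPB3 (AT4G28250), a beta-expansin, had -0.10, 2.61 and 3.50 in sucrose and -0.17, 4.55 and 3.17 in glucose. EXPA15 (AT2G03090) had -1.36, 1.21 and 2.74 in sucrose and -0.55, 2.85 and 3.19 in glucose. All 3 were lower in sucrose at 24 h, by 0.79 to 1.93 on the log2 scale. Of the 25 expansin probe sets these were the 3 members. None of the other 22 rose by 2-fold in all 4 differences and 1, a probe set of EXPA20, fell by as much, while the second probe set of EXPA20 did not.

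Other wall families also held 1 member each. sks15 (AT4G37160), of the SKU5-similar family of multicopper oxidase-like wall proteins, had 0.10, 3.95 and 5.13 in sucrose and -0.02, 5.53 and 5.69 in glucose. It was lower in sucrose at both culture times. SKU5 itself, a regulator of directional growth, had differences of 2.32 and 2.79 in sucrose and 2.37 and 1.99 in glucose, and so rose by 2-fold throughout, while the other 2 SKU5-similar probe sets did not. ATPMEPCRB (AT4G02330), a pectin methylesterase, which removes methyl groups from wall pectin, had 0.99, 4.45 and 4.26 in sucrose and 0.78, 4.33 and 3.59 in glucose. The other 3 pectin methylesterase and inhibitor probe sets did not rise by 2-fold. TBL39 (AT2G42570), of the TRICHOME BIREFRINGENCE-LIKE family, whose studied members acetylate wall polysaccharides, had -0.99, 2.23 and 3.65 in sucrose and -0.32, 2.45 and 2.41 in glucose. It was the 1 member among 24 probe sets of that family, of which 1 other rose and 3 fell by 2-fold in all 4 differences. None of the 6 genes on the list of xylem wall synthesis was a member, and none of the 10 xyloglucan endotransglucosylases was, although XTH19 rose and XTH18 fell by 2-fold throughout.

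CLE genes encode short peptides that receptor kinases perceive at the cell surface, and 2 of the 16 CLE probe sets measured were members. CLE44 (AT4G13195) encodes the peptide known as TDIF, which keeps procambium cells dividing and holds back xylem formation. Its levels were 1.05, 4.49 and 4.77 in sucrose and 1.06, 4.46 and 4.47 in glucose. The sugars differed by 0.30 or less at every time. CLE41, which encodes the same peptide, had differences of only 1.10 and 0.91 in sucrose and 1.08 and 1.43 in glucose. CLE25 (AT3G28455), whose peptide moves from root to leaf under drought, had -0.004, 3.14 and 4.01 in sucrose and -0.37, 3.73 and 3.34 in glucose. The other 14 CLE probe sets neither rose nor fell by 2-fold in all 4 differences.

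The remaining members with a symbol have varied roles. GSTU25 (AT1G17180), a tau-class glutathione S-transferase, an enzyme class that attaches glutathione to foreign and reactive compounds, had -2.00, 4.45 and 4.02 in sucrose and -1.68, 3.08 and 4.15 in glucose. It was the sole member of 14 probe sets of that class, and GSTU18 fell by 2.53 or more on the log2 scale in every difference. NDB4 (AT2G20800), an alternative NADH dehydrogenase of the mitochondrial membrane, had -1.33, 4.72 and 4.68 in sucrose and -0.86, 3.64 and 4.19 in glucose. Both genes were higher in sucrose at 24 h, by 1.37 and 1.07. NAI2 (AT3G15950), a protein needed for ER bodies, the compartments that store beta-glucosidases, had 0.10, 4.50 and 4.94 in sucrose and -1.05, 4.41 and 3.65 in glucose. PYK10, the main beta-glucosidase of ER bodies in roots, did not follow it in sucrose, where its differences were -1.09 and 1.29, against 1.87 and 2.49 in glucose.

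BGLU15 (AT2G44450), a beta-glucosidase, had -0.005, 3.09 and 5.45 in sucrose and -0.11, 4.08 and 5.13 in glucose. AT1G54010, which the RefSeq table lists with the synonym GLL23, a GDSL lipase-like protein, had 0.41, 4.79 and 5.04 in sucrose and -0.47, 3.87 and 3.04 in glucose. The first kept rising on the second day in both sugars, and the second was higher in sucrose on all 3 pairs of arrays. SCPL45 (AT1G28110), a serine carboxypeptidase-like protein, had -0.82, 2.68 and 3.42 in sucrose and 0.13, 3.02 and 3.64 in glucose. It was 1 of 33 probe sets of its family. Its relative scpl20 just missed the rule, with a smallest difference of 2.38. ATL4H (AT4G17905), a RING-H2 protein of the ubiquitin ligase type, had -0.13, 3.02 and 5.77 in sucrose and 0.43, 4.44 and 6.28 in glucose. ATLP-1 (AT1G18250), a thaumatin-like protein, had -2.31, 0.73 and 2.76 in sucrose and -1.63, 1.53 and 2.64 in glucose. Both continued to climb after 24 h in each sugar. The last members with a symbol were DECOY (AT1G14620), with 2.33, 5.52 and 5.67 in sucrose and 2.47, 5.65 and 5.09 in glucose, and DI21 (AT4G15910), with -0.60, 2.45 and 2.57 in sucrose and 0.12, 2.68 and 3.002 in glucose.

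**Figure D3:**
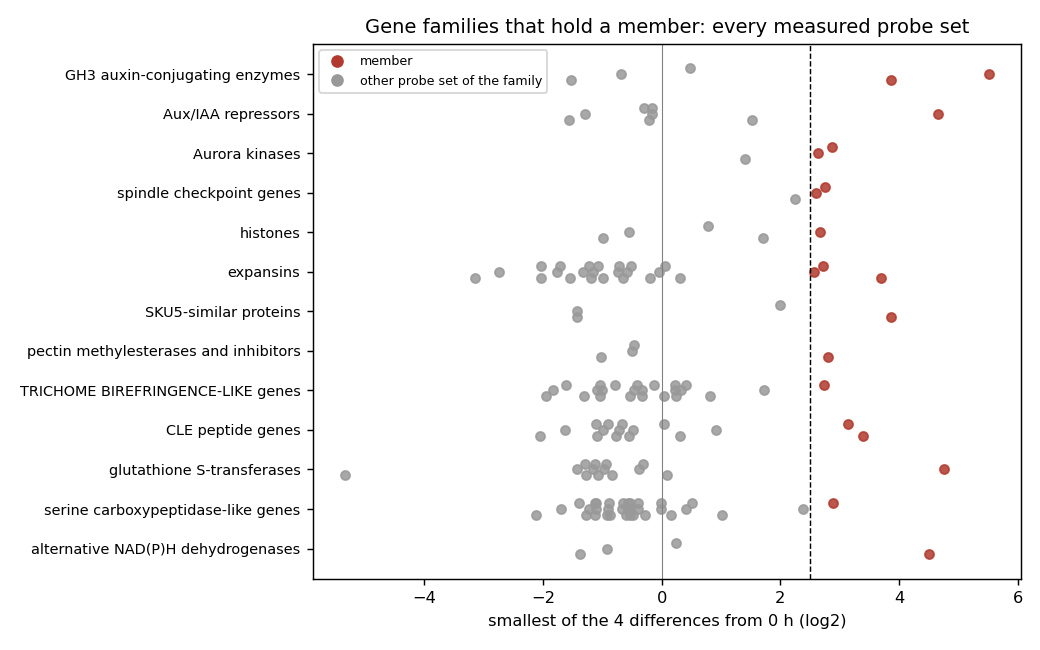
Smallest of the 4 differences from 0 h (log2) for every measured probe set of 13 gene families, with members in red and other probe sets of the family in grey. The dashed line is the rule's threshold of 2.5. The Aurora kinase and spindle checkpoint probe sets all lie above 1, while most expansin, CLE and serine carboxypeptidase-like probe sets lie near or below 0.

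After the first day the members took several courses. In both sugars, 55 of the 137 stayed within 2-fold between 24 and 48 h, GH3.3, HAT2, IAA30, CLE44 and NAI2 among them. Another 48 rose by at least 2-fold in sucrose and stayed within 2-fold in glucose, including AUR1, TOPII, BUBR1, BUB3.1, EXPA4, EXPA15, sks15, PID2 and TBL39. A further 8 rose by 2-fold in both sugars: ATL4H, BGLU15, ATLP-1, AUR2, AT1G67420, AT5G56120, AT5G44400 and AT3G54040. The 5 that fell by 2-fold in both were AT4G12490, AT4G12500, AT5G24200, AT1G61255 and AT3G26470. The other 21 changed in glucose alone, fell in sucrose alone or moved in opposite ways. In sucrose, 40.9% of members rose by 2-fold on the second day, against 5.05% of all probe sets with 1 gene. In glucose 8.03% did, against 6.64% of all. Falls of 2-fold were found in 5.84% of members and 4.82% of all in sucrose, and in 14.6% and 6.02% in glucose. The rule used these arrays, so the shares are a description. Among the names in the text, PID2, TOPII, ATLP-1, DECOY and DI21, which carry a symbol but are on no family list, and AT1G67420, AT5G56120, AT5G44400, AT1G61255 and AT3G26470 were chosen after their values were seen.

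Over both sugars, the median member was higher at 48 h than at 24 h by 0.40 on the log2 scale, against -0.13 for all 25811 probe sets tested. The 24 h and 48 h levels are among the values that chose the members, so this gap is a description. The contrast was fitted with limma on the whole table, with Benjamini-Hochberg adjustment. No member passed an adjusted p of 0.05, and no probe set of the whole table did (percent called 0). The smallest adjusted p was 0.0981 among members and 0.0949 overall. At an unadjusted p under 0.05, 1783 of all the probe sets were higher at 48 h and 3420 were lower, with 34 and 12 members among them. The members with the smallest p were AT3G54040 at 2.17 ± 0.25 (SE) and AT5G24200 at -2.29 ± 0.27, both with limma adjusted p = 0.0981, then AT4G12490 at -1.48 ± 0.20 and ATL4H at 2.30 ± 0.33, both with 0.101. For a member below the floor on both 0 h arrays, as AT5G24200 and AT4G12490 were, the 0 h pair adds no spread to the SE. Whether any of the cultures were separate is not labelled, so these p-values measure only the spread between the 6 arrays, which may be technical. That spread includes any change in the sugar difference between 24 and 48 h, which the model counts as error.

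The median sugar difference of the members was negative at 24 h and positive at 48 h. At 24 h, 85 of the 137 members were lower in sucrose, and 30 of them at least 2-fold lower (21.9%). At 48 h, 107 members were higher in sucrose, and 28 of them at least 2-fold higher (20.4%). The same shares were 8.09% and 11.9% of the 1013 other genes that rose by 2-fold or more in all 4 differences, and 2.70% and 3.19% of all probe sets with 1 gene. These shares describe sets chosen by the size of their change on the same arrays and are not a test. Of all 16722 probe sets with 1 gene, 8504 were lower in sucrose at 24 h and 7224 were higher at 48 h. The median sugar difference of the members was -0.02 at 0 h, -0.22 at 24 h and 0.54 at 48 h. Both signs together, lower in sucrose at 24 h and higher at 48 h, held for 62 members (45.3%), and for 19.2% of all probe sets with 1 gene. The same signs were found in 43.7% of the 1013 other genes. Another 45 members were higher in sucrose at both times, 23 were lower at both, and 7 were higher at 24 h and lower at 48 h. These are 32.8%, 16.8% and 5.11% of members, against 24.0%, 31.7% and 25.1% of all probe sets with 1 gene.

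**Figure D4:**
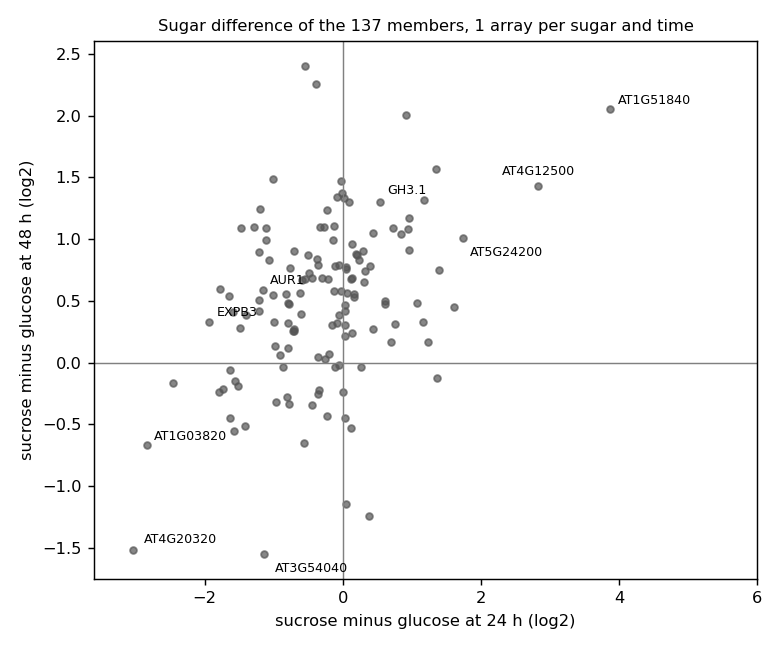
Sucrose minus glucose at 48 h (log2, vertical) against the same difference at 24 h (horizontal) for the 137 members, 1 point per gene and 1 array per sugar and time. The upper left part holds 62 members, the upper right 45, the lower left 23 and the lower right 7.

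No sugar difference averaged over the culture times passed the test. The test has a sugar term shared by both culture times, so differences of opposite sign, as in the members' medians above, offset each other. The model counts that opposite movement as error, so the test cannot decide whether the sugars differed at either time alone. In the limma fit over both culture times, 0 members and 0 of 25811 probe sets had an adjusted p of 0.05 or less (percent called 0), with the smallest at 0.286 among members and 0.210 overall. At an unadjusted p under 0.05, 1802 of all the probe sets were higher in sucrose and 923 were lower, with 16 and 6 members among them. The gap between the sugars was widest for a few loci. AT1G51840 stood at -1.40, 5.52 and 3.80 in sucrose and at -0.87, 1.65 and 1.75 in glucose, a difference of 2.96 ± 0.48 (SE; limma adjusted p = 0.286). It entered the set in glucose by a narrow margin, with a smallest difference of 2.52. AT4G12500 followed at 2.13 ± 0.39, then AT1G54010 at 1.46 ± 0.43, AT4G12540 at 1.46 ± 0.28 and AT5G24200 at 1.37 ± 0.27. AT4G12540 had -1.12, 2.501 and 2.67 in sucrose and -1.81, 1.16 and 1.10 in glucose.

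In the other direction, AT4G20320 stood at -0.55, 2.36 and 4.67 in sucrose and at -0.24, 5.40 and 6.19 in glucose, a difference of -2.28 ± 0.41 (SE; limma adjusted p = 0.302). AT1G03820 had -3.03, -0.10 and 2.49 in sucrose and -2.72, 2.73 and 3.16 in glucose, or -1.75 ± 0.56. Most of its gap lay at 24 h, where the sucrose array was 2.83 lower, and its 0 h arrays were far below the floor. AT3G54040 had -0.35, 2.16 and 4.12 in sucrose and -0.39, 3.30 and 5.67 in glucose, or -1.35 ± 0.25. AT4G24780 had 0.11, 3.04 and 5.16 in sucrose and 0.41, 5.49 and 5.32 in glucose, or -1.31 ± 0.55, so its sugars met by 48 h. sks15 closed the list at -1.07 ± 0.30.

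The second-day change itself was compared between the sugars in a model that keeps the 4 cultured arrays apart and was chosen after seeing the data. The change was larger in sucrose by a median of 0.83 over the members, against 0.11 over all probe sets tested. The 24 h and 48 h levels are among the values that chose the members, so this gap, too, is a description. The 1013 other genes that rose by 2-fold in all 4 differences had median second-day changes of 0.12 in sucrose and -0.25 in glucose. Those of the members were 0.70 and 0.10. No member or other probe set passed the adjusted p of 0.05 (percent called 0), and the smallest limma adjusted p was 0.159 among members and 0.147 overall. At an unadjusted p under 0.05, 2624 of all the probe sets had the larger change in sucrose and 1409 the smaller one. The 0 h pair gives this model its single residual degree of freedom, and for the 60 members below the floor on both 0 h arrays that residual is 0. The model therefore holds no measure of the spread of the 24 h and 48 h arrays, and its values are given without an error. The second-day change in sucrose exceeded that in glucose by 2.26 for EXPB3, 1.75 for AUR1, 1.71 for BUBR1, 1.63 for AUR2 and 1.56 for TOPII.

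The 5 members just inside the threshold were AT2G07777, AT5G64780 and AT3G50400, each with a smallest difference of 2.51, and AT5G48460 and AT3G54040, with 2.502 and 2.501. The 5 just outside were AT3G26440 and LUL4 with 2.48, AT2G26730 and AT4G34555 with 2.47 and AT1G72250 with 2.46. The whole set ran from 2.501 to 6.70 with a median of 2.95, and 65 members reached 3 and 21 reached 4.

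Members were found on all 5 nuclear chromosomes, with 27, 25, 27, 29 and 29 on chromosomes 1 to 5. Chromosome 4 held 21.2% of members and 14.7% of all probe sets with 1 gene. Of 159 measured genes next to a member, 4 were members themselves (2.52%), in the pairs DECOY with AT1G14630 and AT1G54010 with AT1G54020. The share over all probe sets with 1 gene is 0.819%, and the 4 are only 2 pairs counted from both sides. A further 10 pairs lay within 5 genes of each other, among them AT4G12490, AT4G12500 and AT4G12540 in 1 stretch of chromosome 4. Members with very similar sequences could share signal, which was not tested. Of the other 155 neighbours, 14 (9.03%) rose by 2-fold in all 4 differences, near the 6.88% of all, and their median mean difference was -0.18, against -0.27 for all. A second probe set with 1 gene was measured for 2 members. That of AT2G07777 rose by 2.23 and 2.74 in sucrose and by 2.33 and 2.67 in glucose, whereas that of AT2G40010 gave 0.11 and 0.47 in sucrose and -0.39 and -0.16 in glucose, so the rise of AT2G40010 rests on 1 of its 2 probe sets. Probe sets with several genes also held 3 members. That with AT2G25270 had 0.87 and 1.15 in sucrose and 1.05 and 1.58 in glucose, that with AT3G26470 had 0.39 and 0.23 in sucrose and 1.13 and 1.07 in glucose, and that with AT2G38380 had 0.42 and 0.27 in sucrose and 0.04 and -0.09 in glucose, all below the threshold.

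Other classes of transcript changed beside the members. The 27 photosynthesis probe sets, listed as markers of mesophyll, had median levels of 7.55, 6.67 and 6.08 in sucrose at 0, 24 and 48 h and of 7.63, 6.93 and 6.11 in glucose. Their log2 levels summed to 181.1, 133.3 and 126.1 in sucrose and to 183.2, 145.5 and 136.4 in glucose, sums that are not amounts of transcript. Many of the 27 are plastid psa and psb genes, which are not particular to mesophyll. None of them was a member. In whole cotyledons, fewer cells of a type and less RNA per cell cannot be told apart, and the part of this shift in the members' values was not tested. None of the 8 other markers measured was a member either, but their levels moved too. The 2 xylem markers had median levels of 0.17, -0.01 and 1.42 in sucrose and -0.30, 0.93 and 3.31 in glucose. The 2 phloem markers had -1.59, -0.65 and 1.53 in sucrose and -1.66, 0.48 and 1.94 in glucose. Both pairs were thus higher at 48 h than at 0 h. The 6 genes on the xylem wall list went another way in sucrose, with median differences from 0 h of -0.66 and -0.42 at 24 and 48 h, against -0.18 and 0.70 in glucose. The procambium marker PHV had 2.25, 3.22 and 3.95 in sucrose and 1.71, 3.16 and 3.13 in glucose. The 3 genes listed as guard cell markers were SPCH, MUTE and FMA. Their median was 0.57, -1.35 and -1.68 in sucrose and -0.03, -0.74 and -1.61 in glucose. The part of these shifts in the members' values was not tested either, and no epidermis marker on the list was measured. The 98 control probe sets held no member-like course, and their median differences ran the other way, at -0.74 and -1.01 in sucrose and -0.90 and -0.82 in glucose.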

How the data were processed

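The authors deposited 1 log2 signal for each probe set and array. GCOS was used, per the submitters' processing notes. Its version, background correction and normalization are not stated by the sources, and the log base was inferred from the range of the values. RNA was amplified before hybridisation, per the labels' protocols, which can alter relative levels. Of 38408 probe sets, 16722 had 1 gene; symbols came from the RefSeq table of TAIR10.1. Each array was centred on its median over these. The members and all lists were chosen with earlier results of these data known. For limma 3.58.1 (R 4.3.3; lmFit, eBayes with trend), low values were set to a floor (pooled 40th percentile). The 25811 probe sets that exceeded it on 2 or more arrays entered the two-sided test, with Benjamini-Hochberg adjustment. The model had a mean for each time and a sugar term (sucrose minus glucose) shared by the 4 cultured arrays, and was tested on simulated data. All 137 members passed the filter. Named were the 15 members with the largest smallest difference, the 5 on each side of the threshold, up to 6 per family list, and the 5 with the largest sugar difference in each direction; the other 14 named members were added after their values were seen. Alternatives changed the threshold, scaling, floor and arrays. Promoter motifs and protein sequences were not used here.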

Additional observations from a re-analysis of the deposited data

Results flagged for a closer look

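The rule was also met by probe sets outside the described set. Of the 20829 probe sets that the platform's table does not list with a gene, 237 met it (1.14%), and they drew attention as a signal in probe sets that the rule leaves out for want of a gene name, although those above the floor were part of the limma fits. None of the 98 control probe sets met the rule. Of the 759 probe sets with several genes, 3 did (0.395%). The 237 have no gene name here.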

How the results depend on the processing

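The number of members depended on the threshold: 251 probe sets met the rule at 2.0 and 65 at 3.0, against 137 at 2.5. It was 154 with the deposited values not centred, 111 with trimmed-mean scaling, 115 with quantile normalization (114 shared with the 137) and 103 with the floor. Leaving out 1 array at a time gave 134 to 227 members. The 227 came without the sucrose 24 h array, the only one to move the count by over 1.5 times. Fewer differences then had to pass. No probe set passed limma's adjusted p of 0.05 for sugar or for 48 h against 24 h under any alternative run. The median sugar difference of the members, 0.12, was -0.22 without either 48 h array and 0.54 without either 24 h array. The median of 48 h against 24 h, 0.40, was 0.10 without either sucrose culture array and 0.70 without either glucose culture array. The adjusted p of the 10 named sugar genes ran from 0.265 to 0.624. For 57 members named with values or courses, 43 by the rule, 206 of 228 smallest differences moved by less than the spread of the 0 h pair under the other scalings and the floor, 22 moved further and none changed sign. The lowest was AT1G03820 with the floor, at 0.45. Most of the 22 moved with the floor, among them IAA30, EXPA15, BUBR1 and PID2, and the others with quantile normalization. No paired analysis was possible because every group has 1 array.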
